A study of Mus musculus with 7 samples.

Results

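Weak promoter CAC peaks are places of low CTCF signal near transcript starts in female mouse liver. At each, a CTCF peak overlapped a peak of the cohesin subunit Rad21. They were chosen by 4 criteria applied to the deposited peak lists. A peak of the CTCF list on an autosome had to have a fold enrichment under 5, share at least 1 bp with a peak of the Rad21 list, and have its summit within 1 kb of the start of a GENCODE transcript of the mm9 build. These criteria selected 5488 of the 67010 autosomal CTCF peaks. The lists held 68667 CTCF peaks and 68656 Rad21 peaks on all chromosomes. The livers came from female CD-1 mice, an outbred strain (Crl:CD1(ICR)), aged 8 weeks, and the labels name no treatment or mutation. Peaks were called on 4 CTCF and 3 Rad21 ChIP-seq libraries merged into 1 list per antibody, and the libraries were made from nuclei of whole liver, so hepatocytes and other liver cells are pooled.

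CTCF is a zinc finger protein that binds a long, directional DNA motif and stops cohesin, a ring-shaped complex that extrudes chromatin loops. Sites that hold both are known as CAC (cohesin-and-CTCF) sites, CTCF sites without cohesin as Lone CTCF, and strong CAC sites often anchor loops. Cohesin is also known to lie at active promoters and enhancers, where Mediator and the cohesin loader are found. Most mammalian promoters of broadly expressed genes lie in CpG islands, stretches rich in G, C and the CpG dinucleotide.

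Each peak has 1 fold enrichment, which is the pooled signal at the summit over the local background, so no spread between mice can be given, and all intervals and p-values below cover counting over peaks alone, among which neighbours may not be independent. The weak promoter CACs were compared with 7990 strong promoter CACs (fold of 5 or more), 2044 weak promoter Lone CTCF peaks, and 9382 weak distal CACs whose summits lay over 1 kb from any start. The names CAC and Lone CTCF refer here to overlap, or its absence, between the merged lists. The study instead classed its sex-differential peaks by how many individual libraries of the other factor held an overlapping peak. The criteria fixed the CTCF fold, the presence of Rad21 and the distance to a start, so these are described without a test. Sequence and the direction from the start were not criteria. Sequence does vary with the distance to a start and with CTCF fold, however. Its differences from weak distal CACs and from strong promoter CACs were thus partly fixed by the choice.

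The CTCF motif was learned from the 1000 CTCF peaks of highest fold on odd-numbered autosomes, and these peaks were left out of every comparison of sequence, which left 7781 strong promoter CACs there. They stay among the 7990 where folds and positions are described. Its consensus of 20 bases is given first, followed by the sites of the 5 weak promoter CACs with the highest motif score, since these are the peaks of the class that resemble a classical CTCF site. Capitals mark the bases that are the same as in the consensus, and each site is written 5′ to 3′ in the direction of the motif (NCBIM37, the mm9 assembly).
consensus: TGGCCACCAGGGGGCGCCAG
Capn8, chr1:184494705-184494724, minus strand: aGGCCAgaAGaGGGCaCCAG
1700018C11Rik, chr4:63283667-63283686, plus strand: aGGCCAgaAGGGGGCGCtAc
C1ql4, chr15:98917843-98917862, plus strand: TaGCCggCAGGGGGCGCtgc
Ccdc28a, chr10:17953885-17953904, minus strand: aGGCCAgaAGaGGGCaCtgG
Asb6, chr2:30685029-30685048, minus strand: cGtCCAgaAGaGGGCaCCAG

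These sites had 13 to 15 of the 20 consensus bases and scored from 21.8 bits (Asb6) to 22.6 bits (Capn8). Their centres lay at most 30 bp from the CTCF summit, and the Rad21 summits lay 3 to 60 bp from the CTCF summits. The Capn8 and 1700018C11Rik sites were upstream of the starts in intergenic sequence, with CTCF folds of 4.55 and 4.81. Capn8 encodes a calpain protease. The C1ql4 summit was in coding sequence (CTCF fold 3.91, Rad21 fold 4.15), the Ccdc28a summit in an intron (4.35 and 3.32), and the Asb6 summit in a UTR (2.65 and 3.91). None of the 5 windows was CpG-island-like, as their CpG observed/expected ratios ran from 0.101 to 0.458.

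Most peaks of the class had no such site. Windows at the summits of 5 of them are shown as examples of sequence rich in CpG dinucleotides, which are in capitals (plus strand of NCBIM37). The first 2 belong to the few peaks of very high Rad21 fold, whose Rad21 peak also touched a strong CTCF peak, and the other 3 to genes of the lists described further on. All 5 lacked a called CTCF motif, and only the last 3 were also required to be CpG-island-like, as defined below. They do not stand for the class as a whole.
Psmd11, chr11:80242742-80242891: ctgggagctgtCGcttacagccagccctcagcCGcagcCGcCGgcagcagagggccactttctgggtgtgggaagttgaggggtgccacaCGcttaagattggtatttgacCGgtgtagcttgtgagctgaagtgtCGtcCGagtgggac
Tmem158, chr9:123169473-123169622: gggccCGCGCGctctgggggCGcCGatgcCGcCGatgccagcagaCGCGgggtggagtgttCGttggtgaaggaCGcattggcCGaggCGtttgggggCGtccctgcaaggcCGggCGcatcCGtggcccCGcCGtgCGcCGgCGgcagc
Ndufc2, chr7:104548728-104548877: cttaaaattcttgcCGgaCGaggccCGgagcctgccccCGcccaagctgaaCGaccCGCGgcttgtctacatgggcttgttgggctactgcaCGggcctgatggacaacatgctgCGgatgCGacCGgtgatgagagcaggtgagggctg
Wapal, chr14:35486683-35486832: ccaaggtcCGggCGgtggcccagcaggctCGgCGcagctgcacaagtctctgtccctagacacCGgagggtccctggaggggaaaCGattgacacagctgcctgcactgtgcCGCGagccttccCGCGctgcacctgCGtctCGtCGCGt
Csnk1e, chr15:79272261-79272380: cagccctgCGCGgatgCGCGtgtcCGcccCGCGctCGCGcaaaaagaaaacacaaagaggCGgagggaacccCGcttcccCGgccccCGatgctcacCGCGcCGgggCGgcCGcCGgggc

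The Psmd11 window held 8 CpG dinucleotides at a GC content of 60.7%, and the Tmem158 window held 22 at 76.0%. The windows of Ndufc2, Wapal and Csnk1e held 11, 14 and 19. The last 3 were chosen after their values were seen, from the listed genes of high Rad21 fold. Their windows had to be CpG-island-like and largely clear of UTRs, with the summits within 50 bp of each other.

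The CTCF motif was rare at weak promoter CACs. A match was called at 13.5 bits, the level that 1% of 122507 peak-free windows beside the peaks attained. Such a match lay within 100 bp of the summit of 218 of 5487 peaks, or 3.97% (95% Wilson interval 3.49 to 4.52%). The share was 28.6% at strong promoter CACs, 15.4% at weak promoter Lone CTCF peaks and 15% at weak distal CACs. The differences were −24.6 percentage points (Newcombe interval −25.7 to −23.5), −11.4 points (−13.1 to −9.79) and −11.0 points (−11.9 to −10.1). By two-sided Fisher's exact tests adjusted over 30 pairs of feature and class, the adjusted p was 2.41e-57 against weak promoter Lone CTCF and 1.31e-108 against weak distal CACs, and against strong promoter CACs it was too small for the software to write. The motif was learned from peaks of high fold and was more frequent at higher fold. The difference from strong promoter CACs was thus partly fixed by the fold limit. The difference from weak promoter Lone CTCF was −8.43 points where Rad21 had to cover at least 50% of the CTCF peak, −9.15 points with a −log10 q of at least 10 in both lists, and −3.51 points where CTCF and Rad21 summits had to lie within 100 bp. These settings move peaks that no longer count as shared into the Lone CTCF class. With protein-coding starts only it was −7.38 points. The difference from weak distal CACs was −18.0 points with a −log10 q of at least 10 in both lists and −6.85 points with a fold limit of 4. The share at weak promoter CACs was above that of windows 1000 bp from their own summits (68 of 8395, or 0.810%), while 2.95% of all 43964 distinct protein-coding starts of the autosomes had a match.

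A control matrix with the same columns in reverse order has the same base composition but is not a CTCF motif. It matched 6.20% of weak promoter CACs (5.59 to 6.87%), more than the true matrix did, and 4.39% of all protein-coding starts, at a threshold that was likewise set at 1% of flanking windows. In strong promoter CACs the true matrix matched 28.6% and the reversed matrix 6.0%. The matches to the true matrix that weak promoter CACs did have lay close to the summit. Of the 218 matches, 109 were centred within 25 bp of it (interval of the share 43.4 to 56.6%), against 115 of 340 matches to the reversed matrix (33.8%, 29.0 to 39.0%), and 98 of the 218 pointed along the nearest transcript (45.0%, 38.5 to 51.6%).

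**Figure D1:**
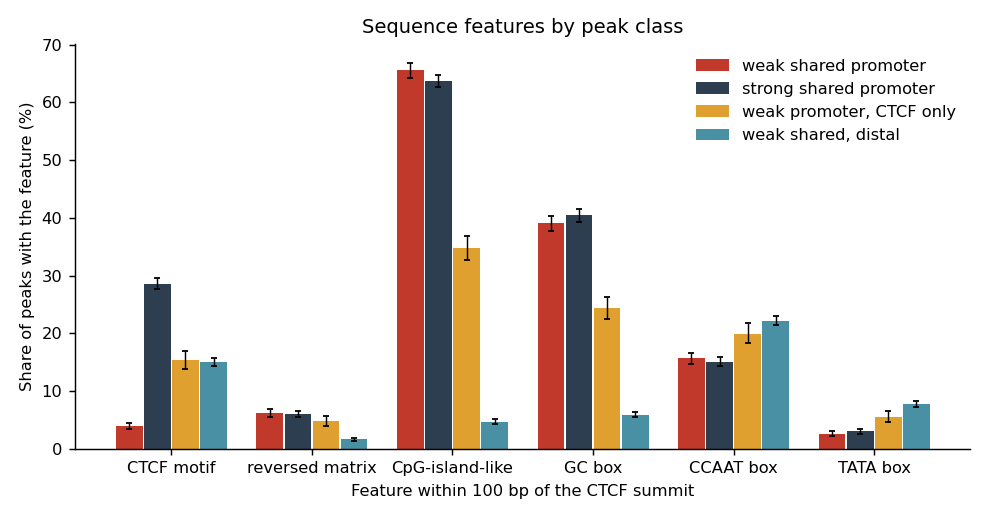
Share of peaks (%) with each sequence feature within 100 bp of the CTCF summit, for 4 classes of peaks, with bars for the share and lines for the 95% Wilson interval (in the legends, shared peaks are CACs). The weak promoter CACs (red) had the lowest CTCF motif share, 3.97%, and a CpG-island-like share of 65.5%, next to the 63.7% of strong promoter CACs.

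Motif content was higher at higher CTCF fold in the 3 weak classes, and the range differed. In weak promoter CACs it was 2.12% for folds under 3 (1.45 to 3.09%, 1225 peaks) and 6.16% for folds of 4.5 to 5 (4.80 to 7.86%, 958 peaks). Over the same range it went from 8.27% to 28.6% in weak promoter Lone CTCF peaks and from 6.58% to 28.8% in weak distal CACs. At folds of 4.5 to 5 the interval of weak promoter CACs lay wholly below those of the other classes (22.5 to 35.5% and 26.5 to 31.2%). The contrast was thus also present among peaks of like CTCF fold.

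**Figure D2:**
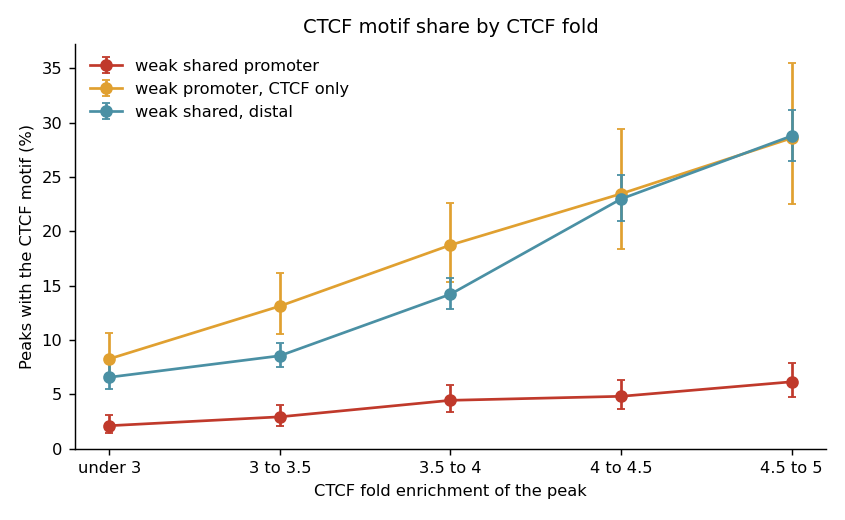
Share of peaks with the CTCF motif (%) by CTCF fold enrichment of the peak, with 95% Wilson intervals, for weak promoter CACs (red), weak promoter Lone CTCF peaks (yellow) and weak distal CACs (blue). The red line rises from 2.12% to 6.16% and stays below the other lines, which end at 28.6% and 28.8%.

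The lower motif share was also seen within one kind of base composition. Among CpG-island-like peaks it was 2.34% for weak promoter CACs (1.89 to 2.88%, 3595 peaks), 16.9% for strong promoter CACs, 5.49% for weak promoter Lone CTCF peaks (4.04 to 7.41%, 711 peaks) and 5.26% for weak distal CACs (3.53 to 7.77%, 437 peaks). Among peaks that were not CpG-island-like, it was 7.08% for weak promoter CACs (6.01 to 8.33%), and 49.2%, 20.6% and 15.4% for the other classes in the same order. Motifs were most frequent in weak promoter CACs that lay far from the start. The share was 10.3% at 500 to 1000 bp upstream (7.46 to 14.2%, 319 peaks) but 2.66% in the first 250 bp downstream (2.08 to 3.40%, 2293 peaks). Strong promoter CACs had 58.3% and 11.7% in these bins. Between them, from 500 to 250 bp and from 250 bp upstream to the start, weak promoter CACs had 3.23% and 3.99% and strong promoter CACs 37.1% and 33.6%. Finally, 6.12% of the weak promoter CACs whose CTCF and Rad21 summits lay within 50 bp had a motif (5.14 to 7.27%), against 2.50% of those with summits over 200 bp apart (1.84 to 3.38%).

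A window was called CpG-island-like where its GC content was at least 50% and its CpG observed/expected ratio at least 0.6. This held for 3595 of 5487 weak promoter CACs, or 65.5% (64.3 to 66.8%), and for 48.8% of all protein-coding starts. The median GC content was 63.7% and the median CpG ratio 0.743. The share was 30.7 points higher than at weak promoter Lone CTCF peaks, where it was 34.8% (interval of the difference 28.3 to 33.1, Fisher's exact test, adjusted p = 6.82e-126). It was 60.9 points higher than at weak distal CACs, where it was 4.66% (59.5 to 62.2, with an adjusted p too small to write). Since the distance to a start was a criterion and starts are often CpG-island-like, this difference was partly fixed by the choice. Against strong promoter CACs, at 63.7%, the difference was 1.77 points (0.120 to 3.42, Fisher's exact test, adjusted p = 0.0565), which missed the threshold. It was 8.43 points with summits within 100 bp and 11.2 points with a −log10 q of at least 10 in both lists, both past the threshold, and −0.849, −1.77 and −2.26 points with starts within 500 bp, protein-coding starts only and a fold limit of 4, of which the last passed the threshold.

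Short promoter elements differed from each other in how they divided the classes. They were sought on both strands as exact letters. The GC box GGGCGG, which Sp1 and related factors bind, was in 39.1% of weak promoter CACs, 40.4% of strong promoter CACs, 24.3% of weak promoter Lone CTCF peaks and 5.92% of weak distal CACs, and in 39.0% of all protein-coding starts. The ETS-family site CCGGAAG was in 6.12%, 6.44%, 3.42% and 1.36% of the classes in that order, and in 8.69% of all starts. For both, weak promoter CACs were higher than weak promoter Lone CTCF peaks (Fisher's exact test, adjusted p = 1.73e-33 and 4.04e-06), while the differences from strong promoter CACs were −1.34 points (−3.03 to 0.347, adjusted p = 0.159) and −0.315 points (−1.14 to 0.532, adjusted p = 0.541).

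The TATA box TATAAA was in 2.55% of weak promoter CACs and was more frequent at weak promoter Lone CTCF peaks (5.48%, Fisher's exact test, adjusted p = 5.89e-09) and weak distal CACs (7.74%, adjusted p = 8.44e-43), while all starts had 6.71%. The CCAAT box, which NF-Y binds, was in 15.6%, below the 19.9% of weak promoter Lone CTCF peaks (Fisher's exact test, adjusted p = 2.89e-05), the 22.2% of weak distal CACs (adjusted p = 3.03e-22) and the 24.3% of all starts. GCGCATG, which is part of the site of the factor NRF1, was the only one of the 10 features other than the CTCF motif that differed from strong promoter CACs. It was in 1.82% of weak and 2.54% of strong promoter CACs (−0.722 points, −1.22 to −0.214, Fisher's exact test, adjusted p = 0.0115), and in 3.35% of all starts. Weak distal CACs had less (0.959%, Fisher's exact test, adjusted p = 2.11e-05). The E-box CACGTG was in 4.41% of weak promoter CACs and 5.23% of all starts, and differed only from weak distal CACs (3.60%, exact adjusted p = 0.0277). The cyclic AMP element TGACGTCA was in 0.492% of weak promoter CACs and 1.65% of all starts, and it too was above weak distal CACs alone (0.256%, exact adjusted p = 0.0333). The letters CAAAGTCCA, the core of a site of the liver factor HNF4A, were in 16 weak promoter CACs (0.292%), near the 0.284% of all starts and below the 1.02% of weak distal CACs (exact adjusted p = 4.46e-07).

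The CTCF folds of the class ran from 1.70 to just under 5, with a median of 3.67, which put the median peak at percentile 23.1 of all autosomal CTCF peaks. Their median −log10 q was 10.5, against 7.58 at weak promoter Lone CTCF peaks and 7.73 at weak distal CACs, and 53.9% of them reached 10. They were also wider, with a median of 380 bp, against 261 and 288 bp. At the lower end were the peaks at Fosl2, which encodes an AP-1 subunit (fold 1.70, −log10 q of 2.32), Nat9 (1.76 and 1.69) and Ift140 (1.89 and 2.31). Just under the limit of 5 were those at Rfx3 (4.99932), March2 (4.99855) and Cul7 (4.99819). Just above it, the strong promoter CACs at Pacs2 (5.00104), Cenpv (5.00186) and Sgcb (5.00224) followed with no gap.

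The overlapping Rad21 peaks had a median fold of 4.15 (order-statistic interval 4.11 to 4.18, range 1.91 to 21.1), the same median as at weak distal CACs (4.15) and less than at strong promoter CACs (6.23). Folds of 2 antibodies cannot be set against each other directly, so each peak was ranked within its own list. The Rad21 rank was above the CTCF rank at 75.6% of weak promoter CACs, 75.3% of weak distal CACs and 41.4% of strong promoter CACs. Since the class was selected on a low CTCF fold, this order was partly fixed by the choice. The same choice restricts the range of CTCF fold, to which a correlation is sensitive, so no value is set beside that of strong peaks. Across the 5488 peaks, which share the same pooled libraries, CTCF and Rad21 fold had a Spearman rho of 0.272, and across weak distal CACs, with the same limit on fold, 0.209.

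CTCF and Rad21 summits were further apart in weak promoter CACs, by a median of 85 bp against 39 bp in strong promoter CACs and 68 bp in weak distal CACs. The nearest overlapping Rad21 summit lay within 100 bp of the CTCF summit in 3086 peaks (56.2%). The Rad21 peaks had a median width of 517 bp, against 618 bp at strong promoter CACs, and 1118 of the peaks (20.4%) lay in a Rad21 peak that touched another CTCF peak as well. In 425 (7.74%, 7.07 to 8.48%) that other peak had a CTCF fold of 5 or more. Without these 425 peaks the motif share was 3.99% and the CpG-island-like share 65.7%.

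The highest Rad21 folds were of this last kind. Of the 41 peaks with a Rad21 fold of 10 or more, 35 had a Rad21 peak that also touched a strong CTCF peak (85.4%, 71.6 to 93.1%), and the median distance between their summits was 663 bp. Of the 3945 peaks with a Rad21 fold under 5, 3.37% did (2.85 to 3.98%), and the median distance was 81 bp. The 5 of highest Rad21 fold were at Gsg2, Psmd11, Ppdpf, Tmem158 and Tmem191c. At Gsg2, which encodes the mitotic kinase haspin, the CTCF fold was 3.72 and the Rad21 fold 21.1, and the peak held a motif of 16.2 bits. At Psmd11, a subunit of the proteasome lid, the CTCF fold was 2.0 and the Rad21 fold 19.8. At Ppdpf, Tmem158 and Tmem191c the CTCF folds were 4.64, 2.68 and 2.84 and the Rad21 folds 19.1, 18.4 and 18.3. At all 5 the Rad21 peak also touched a strong CTCF peak, and the summits were 545 to 828 bp apart. Of the 6 peaks past a Rad21 fold of 10 whose Rad21 peak touched no strong CTCF peak, those at Exd1 (Rad21 fold 14.7) and Camta1 (13.3) held a motif. Both were named after their values were seen.

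**Figure D3:**
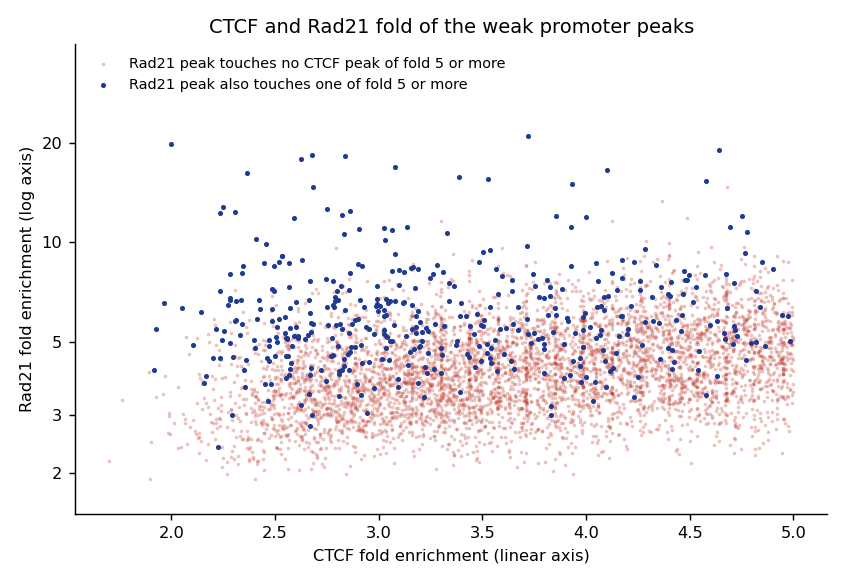
CTCF fold enrichment (linear axis) against Rad21 fold enrichment (log axis) of the 5488 weak promoter CACs, 1 point per peak. Blue points are the 425 peaks whose Rad21 peak also touched a CTCF peak of fold 5 or more, and 35 of the 41 points at a Rad21 fold of 10 or more are blue.

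Weak promoter CACs lay more often downstream than upstream of the start. The median distance of the CTCF summit to the nearest start was 172 bp, and 63.8% were within 250 bp, next to 65.9% of strong promoter CACs and 45.6% of weak promoter Lone CTCF peaks, given without a test. The summit was downstream of the start in 3461 peaks (63.1%, 61.8 to 64.3%), upstream in 2018 and on the start itself in the others. This was 9.37 points more than the 53.7% of strong promoter CACs (7.69 to 11, Fisher's exact test, adjusted p = 1.03e-26 over 4 tests of position) and 9.93 points more than the 53.1% of weak promoter Lone CTCF peaks (7.42 to 12.4, adjusted p = 1.27e-14). The bins from the start to 100 bp and from 100 to 200 bp downstream held 19.1% and 18.4% of the class, and 19.3% and 14.6% of strong promoter CACs. The 100 bp just upstream held 9.55% of the class, where strong promoter CACs had 14.5%. Starts on both strands lay within 1 kb at 17.4% of weak promoter CACs, above the 13.9% of strong promoter CACs (Fisher's exact test, adjusted p = 1.82e-08) and the 10.5% of weak promoter Lone CTCF peaks (adjusted p = 2.77e-14). The tests of position were added after these values were seen.

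**Figure D4:**
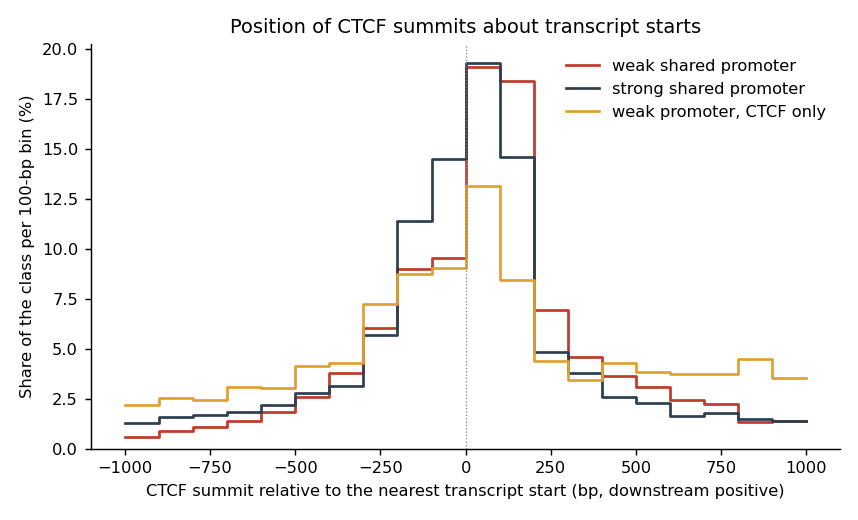
Share of each class (%) per 100-bp bin of the distance from the nearest transcript start to the CTCF summit, downstream positive. The weak promoter CACs (red) hold 19.1% and 18.4% in the first 2 bins downstream, where strong promoter CACs (dark) hold 19.3% and 14.6%. In the bin just upstream the weak promoter CACs hold 9.55% and the strong promoter CACs 14.5%.

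The nearest start belonged to a protein-coding gene at 92.7% of the peaks, to a lincRNA at 2.68% and to a microRNA at 0.620%. The annotation at the summit was an intron for 1932 peaks (35.2%), a UTR for 1324 (24.1%), coding sequence for 826 (15.1%), an exon of a non-coding transcript for 272 (4.96%) and intergenic for 1134 (20.7%). A further CTCF peak, with a fold of 5 or more, lay within 2 kb of 27.9% of the weak promoter CACs and within 10 kb of 60.5%. The shares were 24.7% and 65.3% for weak promoter Lone CTCF peaks, and 9.50% and 41.3% for weak distal CACs. The motif share of weak promoter CACs was 4.91% with such a peak within 2 kb (3.93 to 6.11%) and 3.24% where the nearest was 10 to 50 kb away (2.55 to 4.12%).

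At the level of genes, 4714 of 21281 autosomal protein-coding genes had a weak promoter CAC within 1 kb of a start, which is 22.2% and the background for the lists below. For strong promoter CACs it was 7445 genes, or 35.0%. Both kinds were at the starts of 1622 genes (7.62%), while 10018 genes (47.1%) had neither of these nor a weak promoter Lone CTCF peak. Genes with a CpG-island-like start had a weak promoter CAC in 34.2% of 11836 cases (33.4 to 35.1%), and the other genes in 7.00% of 9439 (6.51 to 7.54%). For strong promoter CACs these shares were 54.3% and 10.8%. A larger share of the listed genes than of all genes had a weak promoter CAC in 9 of the 12 gene lists. The share of all genes includes those without a CpG-island-like start. The lists were not matched to it for base composition or for the number of starts per gene. The lists were chosen with earlier results of these data known, and their counts are given without a test.

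Among 29 genes of hepatocyte secreted proteins, 6 had a weak promoter CAC (20.7%) and 2 a strong one. Of 33 drug-metabolizing cytochromes P450, 7 did (21.2%) and 3 had a strong one. Both shares of weak peaks were near the background of all genes, and those of strong peaks were under theirs. The highest Rad21 folds among the secreted proteins were at Apoh (apolipoprotein H, Rad21 fold 5.84, CTCF fold 2.90), Rbp4 (the plasma retinol carrier, 4.43 and 3.67) and Itih1 (3.12 and 2.47). The Apoh peak had its CTCF summit 360 bp upstream of the start, in an annotated intron, and 1114 bp from the Rad21 summit. The highest Rad21 folds among the P450 genes were at Cyp2d10 (7.41 and 4.40), Cyp2d26 (4.97 and 4.25) and Cyp2j5 (4.67 and 3.95). None of these 3 P450 windows was CpG-island-like, with CpG ratios of 0.264, 0.226 and 0.162.

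In the list of hepatocyte transcription factors, 14 of 26 genes had a weak promoter CAC (53.8%), among them Hnf4a, Onecut1, Prox1 and Nr1i3, and 12 had a strong one. The highest Rad21 folds were at Xbp1, a regulator of the unfolded protein response (Rad21 fold 9.73, CTCF fold 3.72, in a Rad21 peak that also touched a strong CTCF peak and had its summit 1030 bp from that of the weak CTCF peak), at Stat5b, which transmits growth hormone signals (6.31 and 3.82), and at Nr1h4, which encodes the bile acid receptor FXR (5.26 and 4.37). Of 6 urea cycle genes, 3 had a weak promoter CAC. Among them were the ornithine carrier Slc25a15 (Rad21 fold 4.31) and Nags, which makes the activator of the cycle (3.02). The windows of Slc25a15 and Nags scored 13.503 and 13.3 bits, just under the motif threshold of 13.518.

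The circadian clock list had the highest share, with 13 of 20 genes (65.0%) and 10 with a strong promoter CAC. Members included Arntl, which encodes the activator BMAL1 (Rad21 fold 5.79, CTCF fold 3.47), Npas2, the repressors Cry1, Cry2, Per1 and Per3 (Per3 at 5.45 and 4.76), and the kinase Csnk1e (6.06 and 4.61). Genes of CTCF and cohesin themselves followed with 8 of 13 (61.5%), and 10 had a strong promoter CAC. The peaks lay at Rad21 itself, at Nipbl and Mau2, which load cohesin (Mau2, 5.14 and 4.41), at Wapal, which releases it (6.89 and 4.19), at Pds5b, Cdca5 and Esco2, and at Sgol1, which protects cohesin at centromeres (8.32 and 3.57). The Rad21 peak at Sgol1 also touched a strong CTCF peak, and its summit was 441 bp from that of the weak CTCF peak.

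The shares of 5 lists of genes used by every cell were above the 22.2% of all genes, and 1 of them, complex I, was near the 34.2% of genes with a CpG-island-like start. A weak promoter CAC was at 36 of 76 cytosolic ribosomal protein genes (47.4%), at 18 of 37 genes of RNA polymerase II and the general factors (48.6%), at 13 of 30 Mediator subunits (43.3%), at 14 of 33 proteasome subunits (42.4%) and at 13 of 35 subunits of mitochondrial complex I (37.1%). Strong promoter CACs were at 36, 22, 20, 19 and 16 of these. The Rad21 folds were highest at Rpl21 (7.96), Rps2 (5.89) and Rpl9 (5.70) among ribosomal protein genes, at Taf13 (8.70), Ercc3 (7.09) and Taf12 (6.88) among polymerase and general factors, at Med8 (6.28), Med26 (5.96) and Med10 (5.81) in Mediator, at Psmd11, Psma1 (6.75) and Psmd14 (6.72) in the proteasome, and at Ndufa8 (8.19), Ndufc2 (7.53) and Ndufs4 (6.96) in complex I. Of 33 peaks, 1 at each of the 3 genes of highest Rad21 fold in each of 11 lists, 0 had the CTCF motif (3.97% of the whole class did), 23 were CpG-island-like (65.5% of the class) and 6 lay in a Rad21 peak that also touched a strong CTCF peak (7.74% of the class). These 6 were at Xbp1, Sgol1, Psmd11, Psma1, Ercc3 and Ndufs4.

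At the other end, none of 1106 olfactory receptor genes, which are silent outside sensory neurons, had a weak promoter CAC, which allows a share of up to 0.271%. A strong promoter CAC was at 3 of them.

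**Figure D5:**
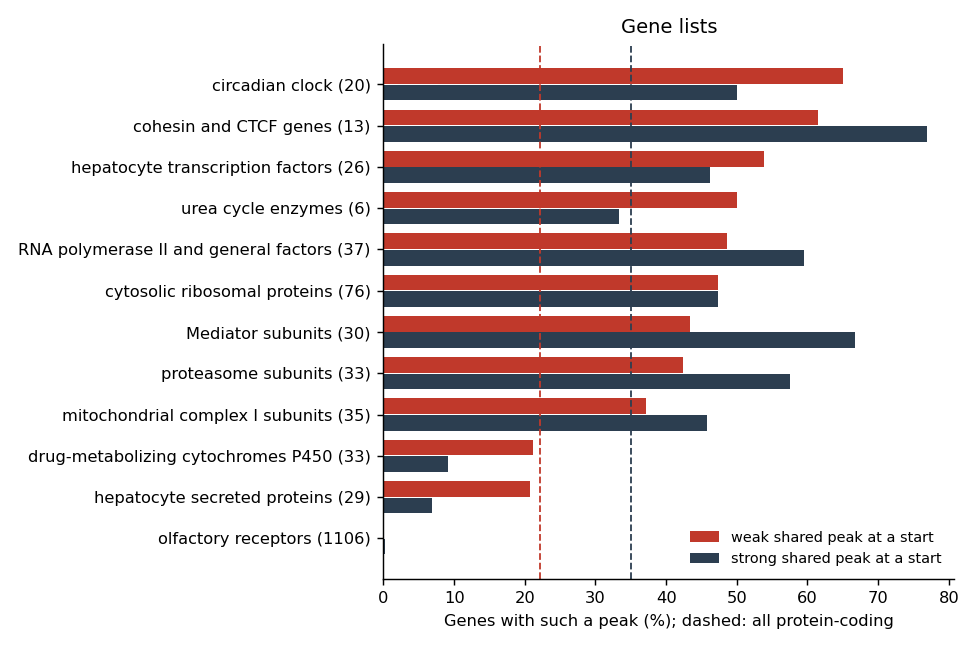
Share of genes (%) with a weak (red) or strong (dark) promoter CAC within 1 kb of a start in the 12 lists, with the number of genes in parentheses. The dashed lines are the shares of all protein-coding genes, 22.2% and 35.0%, and the red bars run from 0 of 1106 olfactory receptors to 65.0% of the clock genes.

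Most of the 4714 genes had a single weak promoter CAC (3743 genes), while 825 had 2, 121 had 3, 23 had 4 and 2 had 5. The genes with 5 were Dab2ip, which encodes a Ras GTPase-activating protein, and Plxnb2, a semaphorin receptor. At Dab2ip the peaks lay at 4 starts on chromosome 2, between positions 35437049 and 35517401, with CTCF folds of 3.72, 4.40, 4.48, 4.71 and 4.86 and Rad21 folds of 3.93 to 6.05. At Plxnb2 they lay between positions 89003287 and 89011790 of chromosome 15, with CTCF folds of 2.57 to 4.03 and Rad21 folds of 2.42 to 3.92. At 1110020G09Rik, the first in order of the genes with 4, all 4 peaks lay between positions 9000369 and 9002006 of chromosome 15, with CTCF folds of 2.68 to 4.04, and 2 of them overlapped the same Rad21 peak, of fold 3.28. None of the peaks at these 3 genes held the motif.

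Weak promoter CACs were found on every autosome. They made up 6.22% of the CTCF peaks of chromosome 6 and 10.8% of those of chromosome 11. Per 1000 distinct transcript starts, their number went from 52.0 on chromosome 2 to 94.8 on chromosome 19.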

How the data were processed

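ChIP-seq was done on nuclei of female CD-1 mouse liver (4 CTCF and 3 Rad21 libraries). According to the study's methods and the labels, the authors aligned the reads with Bowtie2 (mm9), discarded those without a unique position, and ran MACS2 with its defaults. They then dropped peaks in blacklisted regions or formed by duplicate reads alone. Each of the 2 deposited lists was called on merged libraries, and gives for each peak a fold enrichment (a ratio), −log10 p and −log10 q values, a score derived from them, and the summit. The fold, −log10 q and summit were used as deposited. Depth per library is not in the lists and was not analysed here. A control library is not given in the sources used here. Peaks found by a threshold depend on the depth of the pool.

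Genome and annotation were NCBIM37 and GENCODE vM1, in which all peaks of the autosomes fit. Peaks were joined where they shared at least 1 bp, and where several Rad21 peaks did, the one of highest fold was used for its fold, width and summit. The limit of 100 bp between summits took the nearest Rad21 summit instead. The limits on coverage and on the Rad21 q took the largest value. A matrix of 20 bp was learned from the 101 bp about the summits of the 1000 training peaks (lowest fold 23.9) and scored on both strands within 100 bp of each summit. Peaks without full sequence (4) were left out of sequence tests. Genes were counted by symbol. Shares have Wilson intervals at the 95% level, differences Newcombe intervals and two-sided Fisher's exact tests with Benjamini-Hochberg adjustment over 30 pairs (10 features, 3 classes), called at 0.05. They cover counting error only. The motif search, tests and intervals were tested on simulated data. The software was Python 3.11.15 with numpy 2.4.6, pandas 2.3.3, scipy 1.17.1 and matplotlib 3.10.9. The members, classes and lists were chosen with earlier results of these data known. Peaks named are the 5 of highest Rad21 fold, the 5 of highest motif score, the 3 of lowest CTCF fold, 3 on each side of the fold limit, up to 3 per list by Rad21 fold, and those at the 3 genes with most peaks. Other peaks named are said to be so, and some items are not reported here. Male data were not analysed here.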

Additional observations from a re-analysis of the deposited data

Results flagged for a closer look

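The X chromosome was left out of the class, as the criteria took autosomes alone. Of its 283 promoter peaks shared by CTCF and Rad21, 106 met the other criteria, a share of 37.5% (95% Wilson interval 32.0 to 43.2%). On the autosomes the share was 5488 of 13478 (40.7%, 39.9 to 41.6%). These 106 peaks are outside every comparison above.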

How the results depend on the processing

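No paired analysis was possible because each list was called on merged libraries and holds 1 value per peak for all mice, so neither a replicate block nor leaving out a library could be fitted. Of 100 values recomputed under other settings, 62 kept their direction and side of the threshold or, without a test, stayed within the interval (for the number of peaks, within 1.5 times). The CTCF motif share was lower in weak promoter CACs than in each of the 3 other classes, past the threshold, in all 30 such values, but the size moved. Against weak promoter Lone CTCF it ran from −15.3 to −3.51 points and against weak distal CACs from −18.0 to −6.85. The CpG-island-like share against weak promoter Lone CTCF was 19.5 points with summits within 100 bp and 20.4 with the q limit. These 2 settings move weakly shared peaks into the Lone CTCF class. The CpG-island-like share against strong promoter CACs was the difference that changed sign. It was 3.08 points with at least 50% of the CTCF peak covered by Rad21, 8.43 with summits within 100 bp, 11.2 with a −log10 q of at least 10 in both lists, and 1.92 without the peaks whose Rad21 peak touched a strong CTCF peak, all past the threshold. It was −0.849 with starts within 500 bp, −1.77 with protein-coding starts only and −2.26 with a fold limit of 4 (Fisher's exact tests, adjusted p = 0.405, 0.0576 and 0.0267). The cause was not tested. The setting without peaks that share their Rad21 peak with a strong CTCF peak was chosen after seeing the data.

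The number of weak promoter CACs was 3086 with summits within 100 bp, 2081 with the q limit, 3493 with a fold limit of 4 and 2403 on even-numbered autosomes. In the same first 3 settings, the motif share was 4.99, 4.61 and 3.12%, the CpG-island-like share 68.7, 75.5 and 62.8%, the median Rad21 fold 4.04, 4.87 and 3.92, and the share of genes 13.8, 9.87 and 14.9%. With starts within 500 bp, these were 3.13%, 70.7%, 4.2 and 19.5%. With protein-coding starts only, the motif share was 3.12%, the CpG-island-like share 69.5% and the share of genes 21.4%. The median Rad21 fold and the share of genes were 4.22 and 19.8% with 50% coverage, and 4.05 and 20.2% without the peaks that share a Rad21 peak, while the fold was 4.23 on even-numbered autosomes. The motif share was 19.4% at a background rate of 5% and 5.83% within 50 bp of the summit. The CpG-island-like share was 57.8% at a GC content of 55% and a ratio of 0.65. Depth per library, which limits how weak a peak can be found, was not analysed here.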
